A study of Mus musculus with 15 samples.

Results

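Peroxisomal genes were examined in the gastrocnemius, a calf muscle of mostly fast-twitch fibres, of mice that lacked Cpt1b in skeletal muscle. A set of 36 genes was named for this purpose, of which 13 encode peroxins, the proteins that build the peroxisome, and 23 encode peroxisomal enzymes and transporters. Of these, 34 were found in the table of 13602 gene symbols under their own symbol and 1, Pex11g, under its older symbol Pex11c. Slc27a2 was not analysed here. The 35 genes measured lie on 16 chromosomes.

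There were 8 libraries from male wild-type mice carrying the floxed Cpt1b gene (controls) and 7 from male mice with the skeletal muscle-specific Cpt1b knockout. Cpt1b encodes the muscle carnitine palmitoyltransferase of the outer mitochondrial membrane, which commits long-chain fatty acids to mitochondrial oxidation. Sample titles and series text describe 12 to 14 weeks of chow, whereas the diet field of every sample in both groups reads 45% HFD. The labels do not name the Cre driver, the ages or the deleted part of the gene.

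Peroxisomes are single-membrane organelles that shorten very long-chain and branched fatty acids, start the synthesis of ether lipids and break down the hydrogen peroxide that their oxidases release. Their beta-oxidation runs through an acyl-CoA oxidase, a bifunctional hydratase and dehydrogenase, and a thiolase, with transporters of the ABCD family bringing acyl-CoA in. Peroxins recognise, dock and import matrix proteins, insert membrane proteins and divide the organelle. Several of the enzymes are textbook targets of the lipid-sensing PPAR receptors.

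Libraries held 8334436 to 19397255 tag counts. Levels are given as CPM, tag counts scaled to the TMM-adjusted library total. They are compared between genes without correction for length, on the assumption that each transcript gives a tag at 1 site. How tags were counted is not given in the sources used here. Fold changes are on the log2 scale, positive where knockouts were higher, and are followed by the standard error (SE). A gene was called where the edgeR p, adjusted over the 11062 genes tested, was under 0.05. Cpt1b ranged from 4.44 to 13.1 CPM among controls and from 1.10 to 6.46 CPM among knockouts, a log2 difference of -1.03 ± 0.31 that was not called (edgeR adjusted p = 0.103). All 10 skeletal muscle fibre markers were measured, and their summed level was 108345 to 145028 CPM in controls and 90793 to 134844 CPM in knockouts. Of these markers 1 was called lower, the fast troponin Tnnt3 (3121 ± 338 and 1983 ± 305 CPM, log2 -0.65 ± 0.13, edgeR adjusted p = 0.00629), without overlap. The oxygen-binding Mb was called higher (3093 ± 653 and 5048 ± 1373 CPM, log2 0.71 ± 0.17, edgeR adjusted p = 0.0376), and the part of these shifts in the peroxisomal genes was not tested. Control 7 and knockout 4 stood apart from the other libraries in many genes, and values without them are given where they move a result. In whole muscle, fewer cells of a type and less RNA per cell cannot be told apart.

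Each count rests on a short tag, so the tags predicted for the genes that the results turn on are shown first. They are the 27 bases from the CATG nearest the 3' end of the main GENCODE M21 transcript (GRCm38), read along the mRNA, and capitals mark the CATG anchoring site that this method usually uses. Genes called in knockout muscle come first, then the thiolase paralogs Acaa1a and Acaa1b, which could be confused if their tags were alike.
Cat: CATGgtgtctgtctttggatggcctgc
Ephx2: CATGgaaaagtggatccctttcctgaa
Abcd3: CATGtctccttagcaaacttgtgtact
Phyh: CATGaatttaattaatgtggtactatt
Pex11a: CATGtctactaagtggaaatgagaact
Acaa1a: CATGggacaccctggttgcaaagccat
Acaa1b: CATGaatggtggatgtgatgggcacag

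The Cat tag lies in the 3' UTR at chr2:103453872-103453898 on the minus strand, and that of Phyh in the 3' UTR at chr2:4938624-4938650 on the plus strand. The tag of Abcd3 lies in the 3' UTR at chr3:121758948-121758974 and that of Pex11a in the 3' UTR at chr7:79736172-79736198, both on the minus strand. The Ephx2 tag is coding sequence of the minus strand and crosses an exon junction, between chr14:66084976 and chr14:66085308. None of these 5 tags was found in a transcript of another gene. In Cat and Abcd3 the tag is predicted for 1 of 2 coding transcripts, and in Ephx2, Phyh and Pex11a for all of them. In Acaa1a it is predicted for 1 of 5. The tags of Acaa1a (chr9:119350226-119350252) and Acaa1b (chr9:119148061-119148087), genes on opposite strands of the same chromosome, differ at 19 of 27 positions. Of all 36 predicted tags, 31 lie in the 3' UTR and 5 in coding exons. The Scp2 tag is also predicted for the pseudogene Scp2-ps2 and the Decr2 tag for 3 other genes, so counts of these 2 genes are uncertain.

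Of the 33 peroxisomal genes that passed the filter on low counts, 5 rose in knockout muscle and none fell. They were Ephx2, Cat, Pex11a, Abcd3 and Phyh. As background, 1.67% of all genes tested were called higher and 0.497% lower. The groups did not overlap in 4 of the 5, Ephx2, Cat, Pex11a and Abcd3, against 0.967% of all genes tested with every knockout above every control. At an unadjusted edgeR p under 0.05, 9 of the 33 were higher and 0 lower, beside 7.65% and 5.92% of all genes. The fold change was positive in 28 of the 33, or 84.8%, and in 50.6% of all genes tested. The median log2 fold change was 0.24 over the 33 and 0.0047 over all genes tested.

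Peroxins and the enzymes and transporters are given apart here, beside the 1.67% of all genes tested that were called higher. Of 12 peroxins tested 1 rose, Pex11a, with a median log2 fold change of 0.19, and of 21 enzymes and transporters 4 rose, with a median of 0.24. The fold change was positive in 10 of the 12 peroxins and in 18 of the 21 others. Whether the 2 classes differ was not tested. The plot of fold changes shows both classes with Pex11a alone among the peroxins beyond a log2 value of 1, and Ephx2, Cat and the uncalled Ehhadh beyond it among the others.

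**Figure D1:**
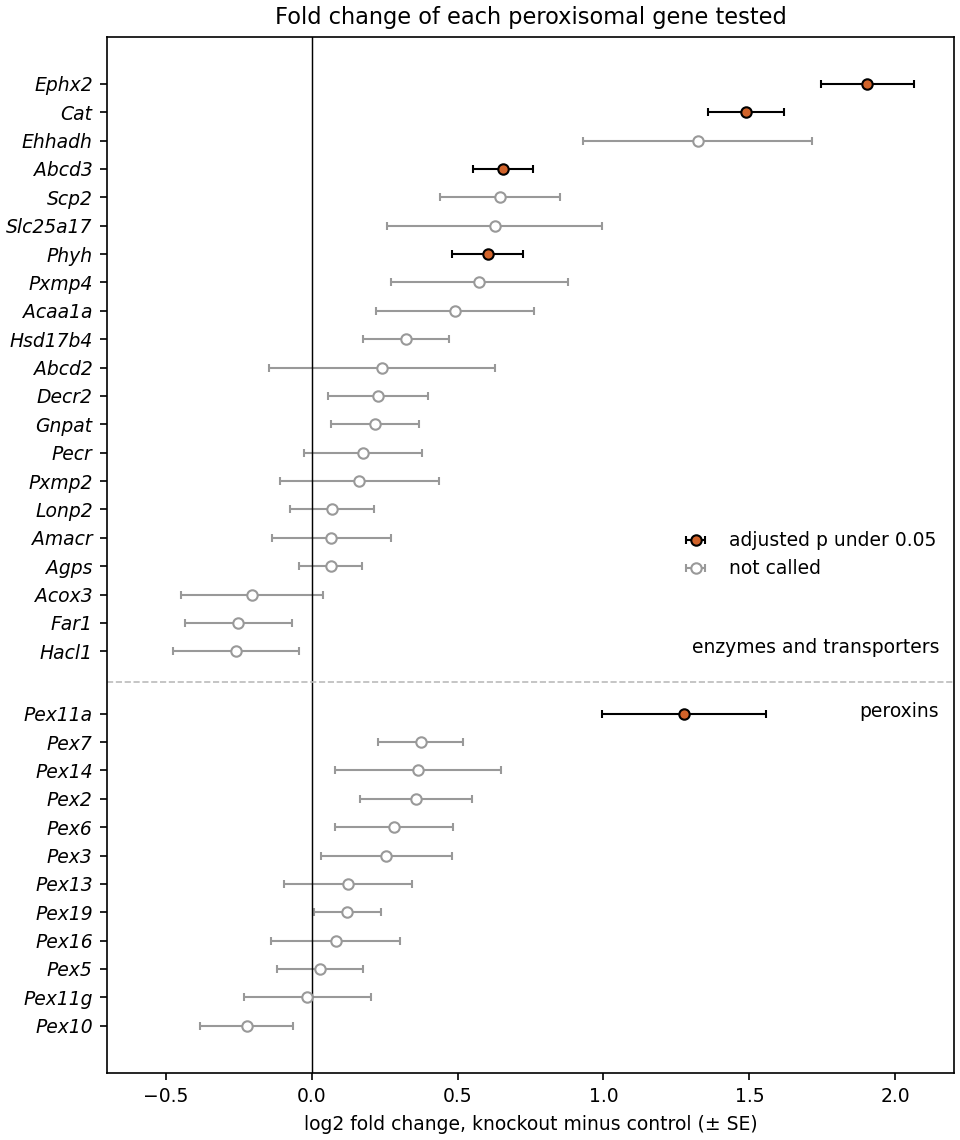
Log2 fold change (knockout minus control, x axis) with its SE for each of the 33 genes tested, peroxins below the dashed line and enzymes and transporters above it. Filled points are the 5 called genes, from Phyh at 0.60 to Ephx2 at 1.90, and open points are genes not called, among which Ehhadh stands at 1.32.

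Cat and Ephx2 changed most clearly. Catalase (Cat) breaks down hydrogen peroxide in the peroxisomal matrix. It stood at 19.3, 26.1 and 33.6 CPM (lowest, median and highest) in controls and at 59.4, 72.4 and 84.1 CPM in knockouts. Every knockout lay above every control. The level rose 2.80-fold, from 26.0 ± 4.54 (SD, n = 8) to 72.9 ± 9.68 CPM (SD, n = 7), a log2 fold change of 1.49 ± 0.13 (edgeR adjusted p = 1.26e-06).

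Ephx2 encodes the soluble epoxide hydrolase, an enzyme of the cytosol and the peroxisome that converts epoxides of fatty acids into diols. Its controls were at 5.96, 6.83 and 8.80 CPM and its knockouts at 17.2, 26.8 and 36.1 CPM, again without overlap. With a 3.74-fold rise, from 6.99 ± 0.886 to 26.2 ± 6.88 CPM (log2 1.90 ± 0.16, edgeR adjusted p = 8.40e-07), it had the largest fold change of the 33 genes. The 8 controls were close together (coefficient of variation 12.7%), while the knockouts spread more widely (26.3%), from knockout 5 at the low end to knockout 2 at the high end. The other gene placed in this group, the peroxisomal protease Lonp2, which processes and degrades matrix proteins, was at 28.7 ± 5.63 and 30.2 ± 4.88 CPM and was not called (log2 0.07 ± 0.14, edgeR adjusted p = 0.836).

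**Figure D2:**
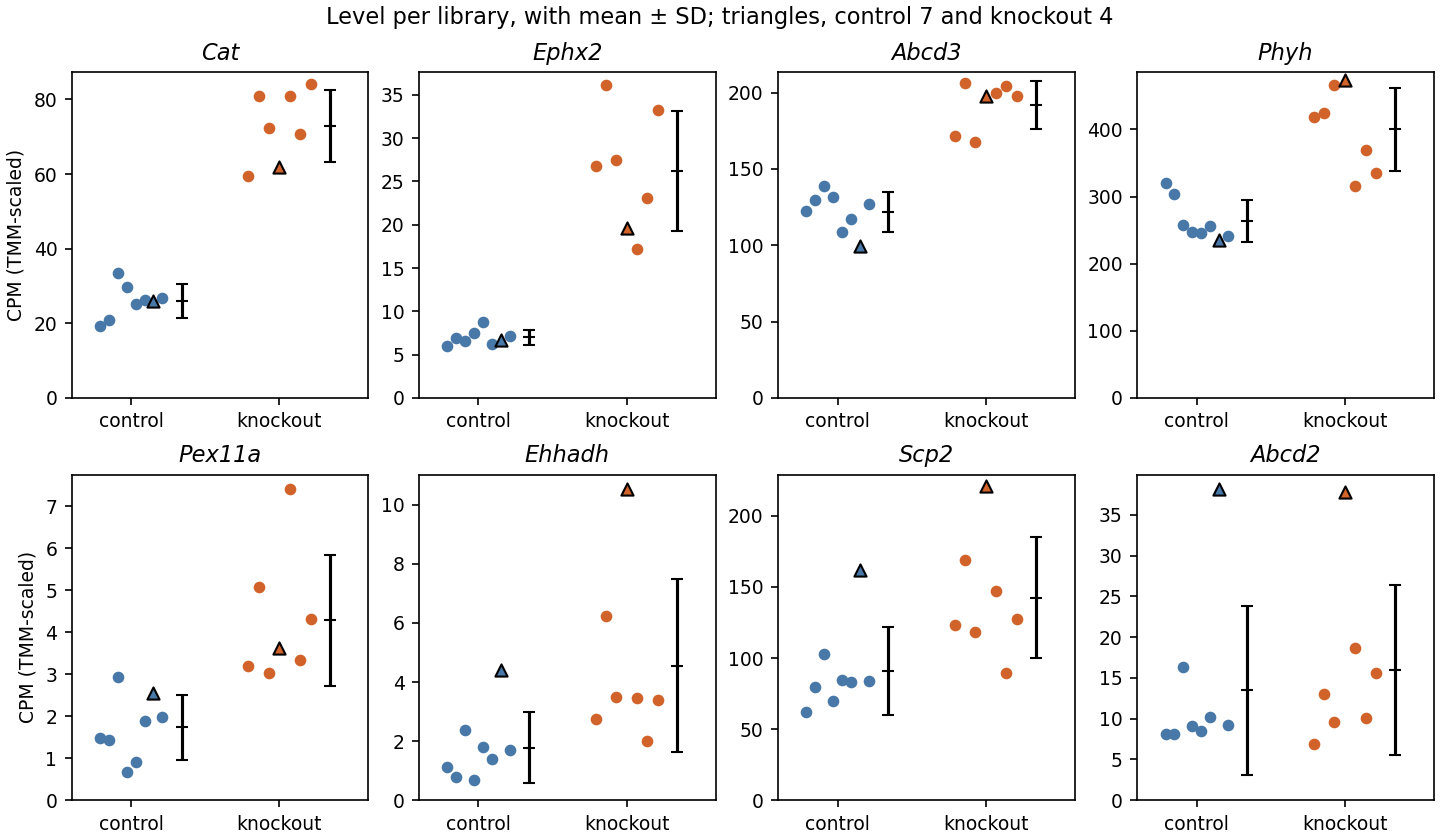
Level in each library (CPM, y axis from 0) of 8 genes in the 8 controls and 7 knockouts, with mean ± SD beside the points and triangles for control 7 and knockout 4. Cat, Ephx2, Abcd3 and Pex11a show no overlap between the groups, while in Ehhadh, Scp2 and Abcd2 the triangles are the highest points of both groups.

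Among transporters, Abcd3 was the called gene. Abcd3, also known as PMP70, is an abundant half-transporter of the peroxisomal membrane that brings in branched-chain and dicarboxylic acyl-CoA. Controls were at 99.4, 125 and 139 CPM and knockouts at 168, 198 and 206 CPM, so the groups did not overlap. The rise was 1.58-fold, from 122 ± 13.01 to 192 ± 15.8 CPM (log2 0.66 ± 0.10, edgeR adjusted p = 0.00109). It was among the least variable of these genes, with a coefficient of variation of 10.7% in controls and 8.197% in knockouts.

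Abcd2, a relative of Abcd3 that carries very long-chain and polyunsaturated acyl-CoA, was spread widely in both groups. It stood at 8.07, 9.15 and 38.2 CPM in controls and 6.94, 13.01 and 37.8 CPM in knockouts, with a log2 difference of 0.24 ± 0.39 (edgeR adjusted p = 0.789). Its highest values came from control 7 and knockout 4, and the log2 difference was -0.14 without knockout 4, 0.69 without control 7 and 0.29 without both. Abcd2 is also expressed in fat. The summed level of 10 adipocyte markers was 1531 to 2122 CPM in controls and 1348 to 3388 CPM in knockouts, highest in knockout 4, while control 7 had 2106 CPM. All 10 markers were measured, with Adrb3 at 0 in 3 libraries. Most of the sum came from Fabp4 (949 and 1105 CPM in controls and knockouts) and Car3 (794 and 843 CPM). In whole muscle these genes do not tell which cells their tags came from, so the sum is not read as the amount of adipocytes. Lep was called lower (4.55 ± 2.78 and 1.27 ± 0.928 CPM, log2 -1.83 ± 0.43, edgeR adjusted p = 0.0295). No other marker of this list was called. The mean of Adipoq was 28.4 CPM in both groups, but its knockouts spread more widely. It stood at 20.7, 24.7 and 42.3 CPM in controls and at 14.3, 21.2 and 78.8 CPM in knockouts. Cidec likewise ran from 6.35 to 19.6 CPM in controls and from 5.62 to 73.5 CPM in knockouts. The part of adipocytes in the Abcd2 level was not tested.

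Slc25a17, the carrier that exchanges coenzyme A and nucleotides across the peroxisomal membrane, was at 2.36, 3.42 and 8.75 CPM in controls and 3.20, 4.26 and 17.1 CPM in knockouts. Its highest values also came from control 7 and knockout 4. Its log2 difference was 0.63 ± 0.37 (edgeR adjusted p = 0.470), with values of 0.08 without knockout 4, 0.93 without control 7 and 0.37 without both. The channel-forming protein Pxmp2 was abundant and did not pass, at 211 ± 76.8 CPM among controls and 236 ± 75.3 CPM among knockouts. Its lowest value of each group was in control 7 (58.5 CPM) and knockout 4 (132 CPM), and its log2 difference was 0.16, or 0.02 without control 7, 0.27 without knockout 4 and 0.11 without both. Pxmp4, a membrane protein of the same organelle, was scarce at 1.40 ± 0.599 and 2.11 ± 0.550 CPM, with 5 of 7 knockouts above the highest control but no call (log2 0.57 ± 0.30, edgeR adjusted p = 0.422).

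Phyh rose in alpha-oxidation, the pathway that removes 1 carbon from branched fatty acids such as phytanic acid. Phyh encodes the phytanoyl-CoA hydroxylase of its opening step and was the most abundant of these genes in controls. It stood at 235, 252 and 320 CPM in controls and at 316, 419 and 473 CPM in knockouts. Of the 7 knockouts 6 lay above the highest control, and knockout 5 lay just below it. The rise was 1.52-fold, from 264 ± 31.2 to 401 ± 62.0 CPM (log2 0.60 ± 0.12, edgeR adjusted p = 0.00897). Hacl1, the lyase of a later step of the same pathway, was at 50.3 ± 15.9 CPM among controls and 42.0 ± 10.2 CPM among knockouts and was not called. All 7 knockouts lay below the control median in Hacl1, and its log2 difference was -0.26 ± 0.22 (edgeR adjusted p = 0.609).

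No gene of the peroxisomal beta-oxidation steps named here was called, although 3 had an unadjusted p under 0.05. Ehhadh, the L-bifunctional enzyme of the hydration and dehydrogenation steps, had a fold change near that of Cat with a wide spread. Its controls were at 0.677, 1.54 and 4.40 CPM and its knockouts at 2.004, 3.465 and 10.5 CPM. All 7 knockouts lay above the control median, and the highest values were those of control 7 and knockout 4. The log2 difference was 1.32 ± 0.39 (edgeR adjusted p = 0.101), and Ehhadh passed with DESeq2 (adjusted p = 0.0284), without control 7 (edgeR adjusted p = 0.0121) and without both control 7 and knockout 4 (edgeR adjusted p = 0.0157).

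Scp2, whose transcripts encode the thiolase of branched-chain substrates and a sterol carrier protein, was at 61.9, 83.3 and 162 CPM in controls and 89.4, 128 and 221 CPM in knockouts. The extremes were again control 7 and knockout 4, and all 7 knockouts were above the control median. Its log2 difference was 0.65 ± 0.21 (edgeR adjusted p = 0.136). It passed without control 7 (edgeR adjusted p = 0.0104) and without both libraries (edgeR adjusted p = 0.0122).

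Hsd17b4, the D-bifunctional enzyme, which acts at the same steps as Ehhadh and serves branched and very long-chain substrates, was at 9.53 ± 1.77 and 11.9 ± 2.04 CPM (log2 0.32 ± 0.15, unadjusted p = 0.0422 and edgeR adjusted p = 0.347). The thiolase Acaa1a was at 14.2 ± 6.31 and 20.01 ± 8.13 CPM (log2 0.49 ± 0.27, edgeR adjusted p = 0.440). Its paralog Acaa1b was close to the limit of detection, at 0.317 ± 0.165 and 0.237 ± 0.262 CPM (a mean of 3.53 tags per library), and was removed by the filter on low counts. Its tag also overlaps an exon of Dlec1 on the opposite strand. Acox3, an oxidase of branched-chain acyl-CoA, was at 6.86 ± 2.05 and 5.96 ± 2.10 CPM and was not called.

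The 3 auxiliary enzymes of the set, Decr2, Pecr and Amacr, did not pass the test. Decr2, the peroxisomal dienoyl-CoA reductase, was at 4.65 ± 1.05 and 5.46 ± 1.02 CPM. Pecr, a trans-enoyl-CoA reductase, was at 6.37 ± 1.41 and 7.16 ± 2.56 CPM, and the racemase Amacr, which prepares branched acyl-CoA for oxidation, was at 3.65 ± 1.03 and 3.82 ± 0.793 CPM. The log2 differences of the 3 ran from 0.07 to 0.23, and none had an unadjusted p under 0.05.

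The ether lipid enzymes did not pass the test. Gnpat, which adds an acyl chain to dihydroxyacetone phosphate, was at 52.6 ± 12.7 and 61.1 ± 4.64 CPM. Agps, which exchanges that chain for a fatty alcohol, was at 22.4 ± 2.41 and 23.4 ± 2.24 CPM. Far1, the reductase that supplies the fatty alcohol, was at 1.87 ± 0.396 and 1.55 ± 0.273 CPM. Their log2 differences were 0.22, 0.07 and -0.25.

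Pex11a was the peroxin that rose. Pex11 proteins elongate and divide peroxisomes, and Pex11a is the member best known for responding to peroxisome proliferators. Controls were at 0.677, 1.69 and 2.94 CPM and knockouts at 3.02, 3.62 and 7.41 CPM, without overlap. The rise was 2.42-fold, from 1.73 ± 0.770 to 4.28 ± 1.56 CPM (log2 1.28 ± 0.28, edgeR adjusted p = 0.0184). Pex11a was scarce, with 38.3 tags in the average library, and the call was lost without knockout 2 (log2 1.22, edgeR adjusted p = 0.0505). Its relative Pex11g was at 6.13 ± 1.62 and 6.06 ± 2.10 CPM and was not called (log2 -0.01 ± 0.22, edgeR adjusted p = 0.980).

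The import receptors were the most abundant peroxins after Pex19. Pex5, which carries matrix proteins that end in the common C-terminal signal, was at 34.1 ± 6.04 and 34.8 ± 6.86 CPM (log2 0.03 ± 0.15, edgeR adjusted p = 0.937). Pex7, the receptor of the N-terminal signal used by Phyh, Agps and the Acaa1 thiolases, was at 36.2 ± 5.96 and 46.9 ± 10.99 CPM. All 7 knockouts lay above the control median in Pex7, with knockout 4 the highest at 66.9 CPM. Its log2 difference was 0.37 ± 0.15 (unadjusted p = 0.0201, edgeR adjusted p = 0.262), and 0.32 without both control 7 and knockout 4.

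At the docking complex on the peroxisomal membrane, Pex14 was at 20.04 ± 10.1 and 25.9 ± 9.09 CPM and Pex13 at 6.77 ± 2.17 and 7.40 ± 1.99 CPM. Pex2 and Pex10 are RING-finger ubiquitin ligases that mark the receptors for recycling. Pex2 was at 21.9 ± 1.90 and 28.1 ± 12.1 CPM, with knockout 4 the highest at 53.9 CPM, and its log2 difference was 0.36, or 0.11 without that library. Pex10 was at 4.98 ± 0.829 and 4.25 ± 0.786 CPM. Pex6, an ATPase that pulls the receptors out of the membrane, was at 4.83 ± 1.18 and 5.88 ± 1.66 CPM, and its anchor Pex26, removed by the filter, at 0.827 ± 0.472 and 0.619 ± 0.247 CPM. None of these had an unadjusted edgeR p under 0.05.

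Pex3, Pex16 and Pex19 insert membrane proteins, and Pex19, their soluble chaperone, was the most abundant peroxin at 56.7 ± 6.26 and 61.8 ± 9.06 CPM. Pex3, its docking factor, was at 5.61 ± 2.12 and 6.73 ± 1.60 CPM and Pex16 at 3.69 ± 0.903 and 3.92 ± 1.35 CPM. Log2 differences of the 3 ran from 0.08 to 0.26. With the SE of these genes at 0.11 to 0.22, differences of this size were not detectable.

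Genes that act at one step or belong to one family were compared within each library, by the log2 ratio of their levels. None of the 6 ratios passed when adjusted over the 6 pairs. Pex11a relative to Pex11g went from -1.81 ± 0.883 (SD, n = 8) to -0.48 ± 0.698 (SD, n = 7), higher than the control median in 7 of 7 knockouts (two-sided exact permutation p = 0.0101, adjusted p = 0.0606, 6435 splits). Pex5 relative to Pex7 went from -0.09 ± 0.253 to -0.43 ± 0.227, with 0 of 7 knockouts above the control median (exact permutation p = 0.0218, adjusted p = 0.0653). Ehhadh relative to Hsd17b4 went from -2.51 ± 0.879 to -1.53 ± 0.977 (exact permutation p = 0.0623, adjusted p = 0.0935), and 6 of 7 knockouts were above the control median.

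Acaa1b relative to Acaa1a went from -4.89 ± 0.676 to -5.87 ± 1.02 (exact permutation p = 0.0476, adjusted p = 0.0935), a value that rests on the few Acaa1b tags. Abcd2 relative to Abcd3 (difference -0.39) and Agps relative to Gnpat (difference -0.19) both had an adjusted exact permutation p of 0.393. Without both control 7 and knockout 4, the adjusted exact permutation p was 0.0472 for Pex11a relative to Pex11g and also for Ehhadh relative to Hsd17b4. In the plot of ratios, the ranges of both groups overlap in every pair.

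**Figure D3:**
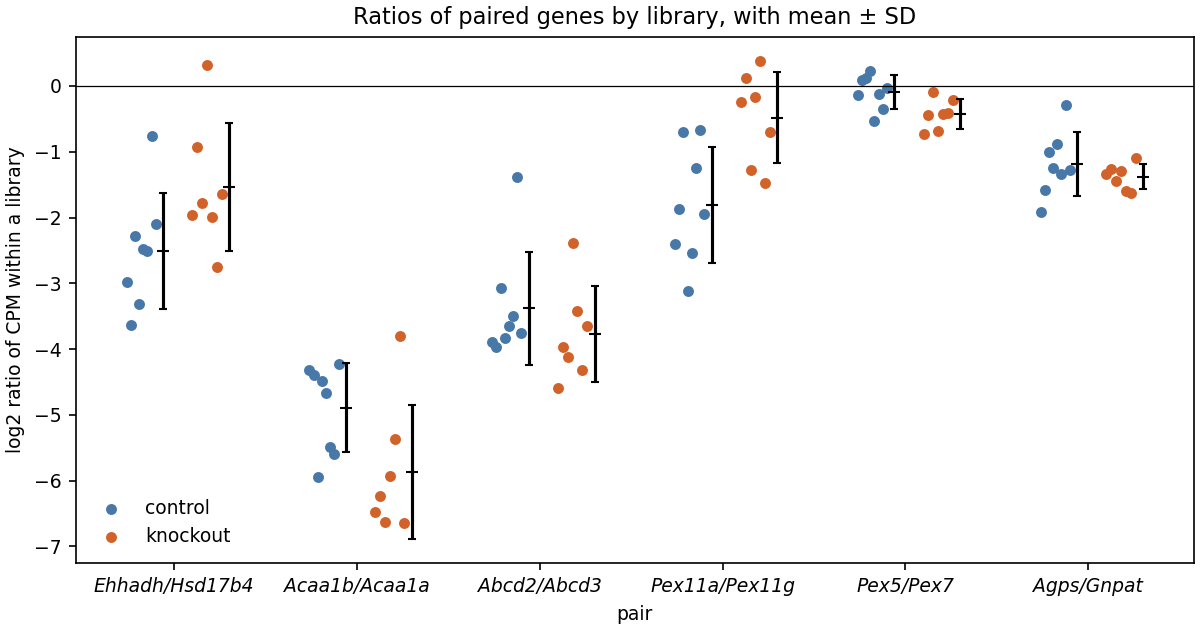
Log2 ratio of the CPM of 2 genes within a library (y axis) for 6 pairs, with 8 controls and 7 knockouts as points and mean ± SD beside them. The knockout points of Pex11a relative to Pex11g reach higher than those of controls, with 4 of 7 above the highest control, and no pair passed after adjustment.

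Libraries of 1 group differed from each other in a common way across many of these genes. In 9 of the 33 genes control 7 was the highest control and knockout 4 also the highest knockout, namely Pex3, Pex7, Pex14, Ehhadh, Acaa1a, Scp2, Pecr, Abcd2 and Slc25a17. In 7 genes both were the lowest of their group, namely Pex13, Pex16, Acox3, Hsd17b4, Pxmp2, Hacl1 and Gnpat. The shares of 27.3% and 21.2% stand beside 20.8% and 15.9% of all genes tested, so this order of libraries is one of the whole table. None of the 5 called genes was among these 16. Without both libraries the same 5 genes were called, together with Ehhadh and Scp2.

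**Figure D4:**
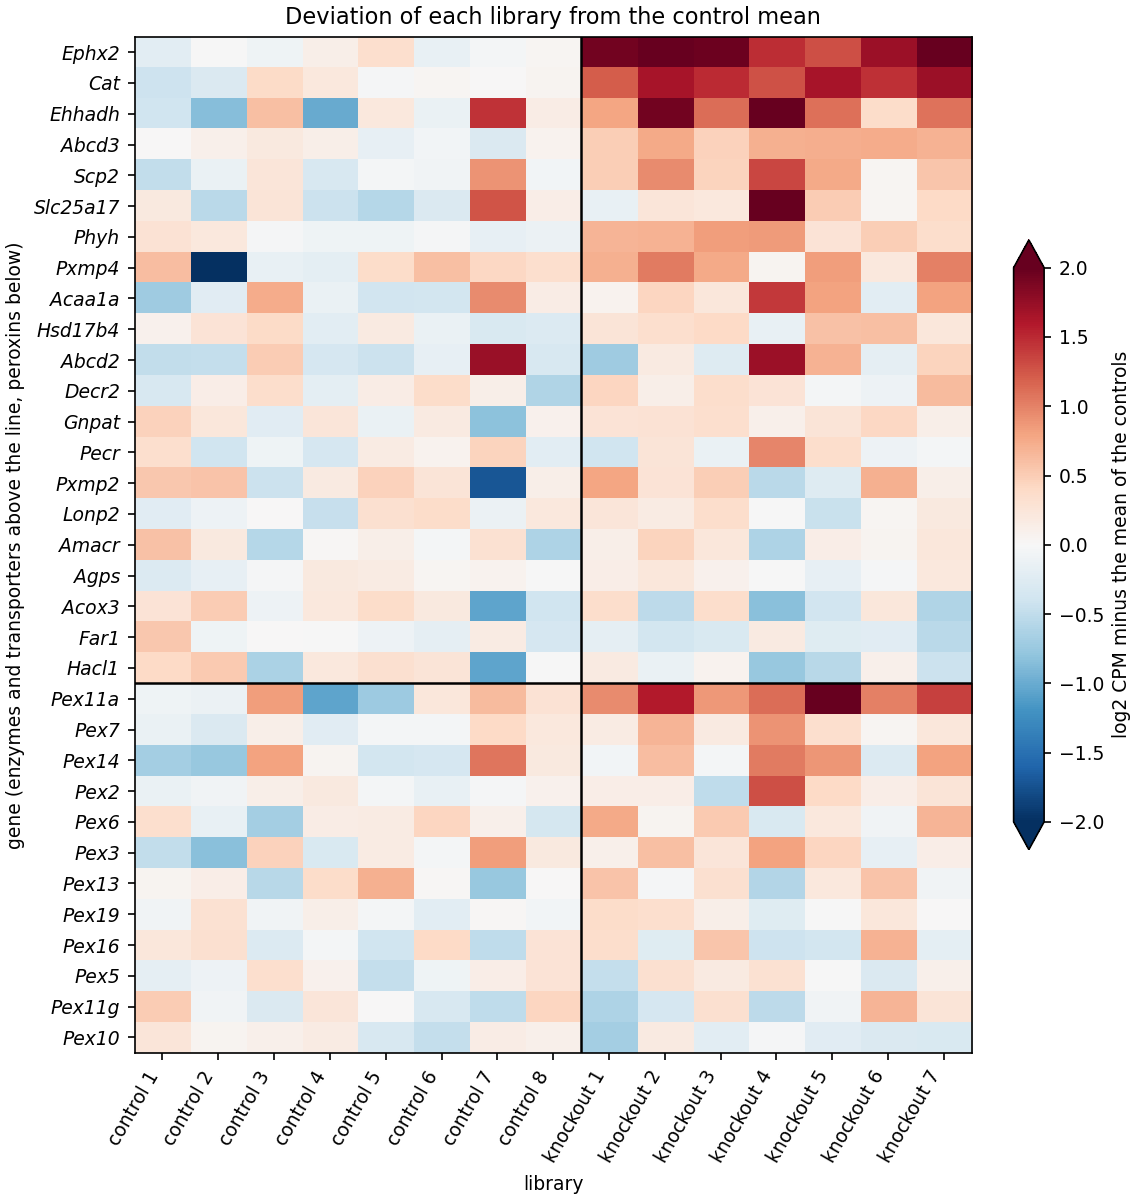
Log2 CPM minus the mean of the controls (colour, limited to 2 in both directions) for the 33 genes tested in the 15 libraries, knockouts right of the vertical line and peroxins below the horizontal line. Rows of Ephx2 and Cat are high in all 7 knockouts, whereas Abcd2 and Slc25a17 are high in control 7 and knockout 4 and Pxmp2 and Hacl1 are low in both.

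Marker lists of other cells overlapped between the groups in their summed level, with a lower range in knockouts for fibroblasts. The summed level of 7 fibroblast markers was 2258 to 3943 CPM in controls and 1270 to 3153 CPM in knockouts. Much of this sum came from the collagen gene Col1a1 (1670 ± 553 and 815 ± 420 CPM). None of the 7 was called, and 2 of them, Pdgfra and Lum, had a positive log2 difference (0.03 and 0.16). The summed level of 8 endothelial markers was 287 to 379 CPM in controls and 263 to 363 CPM in knockouts, and that of 8 macrophage markers 52.3 to 106 CPM and 45.8 to 79.1 CPM. Of the genes listed for brown adipocytes, Ucp1, Cidea and Elovl3 were not analysed here. Cox8b alone was at 36.7 to 59.8 CPM in controls and 53.4 to 72.3 CPM in knockouts and was not called (edgeR adjusted p = 0.148). In whole muscle this 1 gene does not tell which cells its tags came from, so it is not read as a sign of brown adipocytes. The part of other cell types in the changes of Cat, Ephx2, Abcd3, Phyh and Pex11a was not tested.

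Other peroxisomal genes were listed with earlier results of these data known, and are read beside the 1.67% of all genes tested that were called higher. Of 36 further peroxisomal enzymes and transporters tested 7 rose and none fell, with a median log2 fold change of 0.25. Of 14 further genes of biogenesis, division and tethering none was called by edgeR, with 1 at an unadjusted p under 0.05 (13.6% of all genes tested) and a median of 0.07. With 2.17% of all genes called in either direction, a count of 0 among 14 is near the background, and the difference between these lists was not tested.

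Eci2, an enoyl-CoA isomerase, rose from 129 ± 29.0 to 295 ± 47.4 CPM, and Nudt7, a hydrolase of coenzyme A, by 1.19 on the log2 scale from a control level of 21.9 ± 4.84 CPM, both without overlap between the groups. In 3 others the groups overlapped. The acyl-CoA synthetase Acsl1 (84.9 ± 26.6 and 199 ± 56.1 CPM) rose by 1.23 ± 0.20 on the log2 scale (edgeR adjusted p = 0.00153). The scarce reductase Dhrs4 (1.86 ± 0.712 and 5.52 ± 2.26 CPM) rose by 1.55 ± 0.27 (edgeR adjusted p = 0.00302). The dienoyl-CoA isomerase Ech1 rose by 2.04 ± 0.43 with a wide spread (149 ± 119 and 616 ± 323 CPM, edgeR adjusted p = 0.0125). Only 4 of 7 knockouts lay above its highest control. Eci2, Acsl1 and Ech1 proteins also occur in mitochondria, and a tag count does not tell the compartments apart.

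Promoters were searched for the PPAR response element. The motif was AGGTCANAGGTCA on both strands, with N any base and up to 2 mismatches, in the 250 bases before to 50 after each RefSeq start (GRCm38.p6). Promoters were found for 29 of the 36 genes (34 promoters). A match was held by 1 of the 34, a Cat promoter, beside 3.86% of all 32851 promoters. No promoter of the set matched with fewer mismatches. The match lies upstream of Cat, and the stretch chr2:103485325-103485377, which holds it with 20 bases on each side, is printed along the gene (minus strand) with the motif in capitals.
Cat promoter: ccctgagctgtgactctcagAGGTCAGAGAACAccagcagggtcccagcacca

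The motif begins 204 bases before the Cat start, with its opening half-site AGGTCA intact. The half-site AGGTCA alone occurred in 5 of the 34 promoters, those of Cat, Pex11g, Phyh, Scp2 and Slc27a2, and in 16.3% of all promoters. Of the 5 called genes Cat and Phyh held it, though promoters were not found for every gene of the set. A match is a description of these letters only.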

How the data were processed

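Gene expression was measured in gastrocnemius of 15 male mice. Per the labels' protocols, 500 ng of Trizol RNA went into barcoded SOLiD SAGE libraries. The authors deposited raw tag counts per gene symbol. The deposited second table holds a signal that the authors made by dividing the counts by 1 factor per library, as its values show (largest relative deviation 5.4e-10), and it was not used for tests. Per the submitters' processing notes DESeq2 was used with the builds mm10 and GRCm38.p1, while aligner and tag counting are not given in the sources used here. After 360 empty lines were dropped, 13602 genes remained, the smallest with 22 counts in total.

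Counts were tested with edgeR 4.0.16 (R 4.3.3; quasi-likelihood, TMM, filterByExpr with a minimum count of 10, group as the only term), with Benjamini-Hochberg adjustment over 11062 genes. The filter removed 2540 genes, Acaa1b and Pex26 among them. The SE was derived from the fold change and the square root of its F statistic. Ratios used a prior count of 2 and two-sided exact permutation tests. Members and lists were chosen with earlier results of these data known. Each of the 35 genes of the set that were measured is named with its level. Fuller values were given for called genes, of the other lists the 6 called genes with the smallest p, or the gene with the smallest p where none was called. Some results that this rule covers are not reported here. Nothing in the labels says that libraries of a group are technical repeats, and the stated numbers of mice equal the numbers of libraries. The smallest chi-square per gene between 2 libraries of a group was 11.1. Alternatives were RLE scaling, library size alone, no filter, a minimum count of 30, DESeq2 1.42.0, limma 3.58.1 voom, each library left out, control 7 and knockout 4 left out, a surrogate variable (sva 3.50.0) and a replicate block.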

Additional observations from a re-analysis of the deposited data

Results flagged for a closer look

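In each group the highest and lowest library of each of the 35 genes was compared with the rest, and a library was singled out where its gap to the nearest other library was too large a part of the group's range. Of 70 such groups 9 had such a library, each time the highest of its group. The limits used give about 1 in 20 for independent, normally distributed values. CPM of genes from the same libraries need not meet this, so the count is not set against chance. Of the 9, 8 were in control 7 or knockout 4. Abcd2 was at 38.2 CPM in control 7 (next highest control 16.3 CPM) and at 37.8 CPM in knockout 4 (next highest knockout 18.6 CPM). Slc25a17 was at 8.75 CPM in control 7 (next 4.30 CPM) and at 17.1 CPM in knockout 4 (next 5.16 CPM). Control 7 also stood above the other controls in Ehhadh, at 4.40 CPM (next 2.39 CPM), and in Scp2, at 162 CPM (next 103 CPM). Knockout 4 stood above the other knockouts in Pex2, at 53.9 CPM (next 28.8 CPM), and in Pecr, at 12.4 CPM (next 7.98 CPM). Pex26 was at 1.14 CPM in knockout 7 (next 0.725 CPM), a level of few tags.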

How the results depend on the processing

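Cat and Ephx2 were called in all 24 alternatives (log2 1.44 to 1.55 and 1.80 to 1.99). Of 790 fold changes of single genes under alternatives, 750 kept their direction and side of the threshold. Same-numbered libraries did not vary together (correlation over 0.1 in 3 of 7 numbers, and none correlated best with its own number), so the replicate block only describes shared numbers. With it 98 genes of the table were higher and 19 lower, 2 peroxisomal genes were higher (2 enzymes and transporters and 0 peroxins), and Abcd3, Phyh and Pex11a had adjusted p of 0.0533, 0.115 and 0.117. In the 6 ratios the block, as exact sign flips, changed no call (adjusted p 0.234 to 0.344).

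DESeq2 called 310 genes of the table higher and 145 lower. The surrogate variable gave 350 and 143, with 9 peroxisomal genes higher (8 enzymes and transporters), Gnpat (adjusted p = 0.0458) and Pxmp2 (0.00284) among them. Leaving out both distant libraries gave 148 genes lower, 0.91 for Ehhadh relative to Hsd17b4 and 1.44 for Pex11a relative to Pex11g, both past the threshold.

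Over the 15 fits without 1 library, 131 to 311 genes of the table were higher and 30 to 154 lower, the most without control 7. Called peroxisomal genes numbered 4 to 7, peroxins 0 to 1 (0 without knockout 2), and the median of enzymes and transporters was 0.22 to 0.34. Ratio differences ran from 1.14 to 1.50 for Pex11a relative to Pex11g, -0.40 to -0.29 for Pex5 relative to Pex7, 0.66 to 1.22 for Ehhadh relative to Hsd17b4 and -1.32 to -0.85 for Acaa1b relative to Acaa1a, passing in some fits.

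The sign changed, with no call, in 8 genes. Pex11g was at 0.0427 with library size alone, 0.149 with the surrogate variable, 0.0302 with the block and -0.155 to 0.0698 without 1 library. With the surrogate variable Pex5 was at -0.0754, Acox3 at 0.0772, Pecr at -0.0312, Abcd2 at -0.211 and Hacl1 at 0.0623. Pex5 was at -0.0129 without both distant libraries and Amacr at -0.004 with the block. Without 1 library Pex5 ran from -0.0297 to 0.101, Pex16 from -0.0381 to 0.163, Pecr from -0.0178 to 0.257, Amacr from -0.0082 to 0.174 and Abcd2 from -0.14 to 0.69. The cause was not tested for these changes. Pxmp4, Far1, Pex11a and Ehhadh had 22.0, 22.0, 38.3 and 45.3 tags in the average library, the fewest of the 33 genes tested, and how far depth limits their tests was not tested.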

Other observations

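Other peroxisomal enzymes that handle peroxides or conjugate glutathione did not pass the test, and are named here after their values were seen. The peroxiredoxins Prdx5 and Prdx1 had log2 differences of 0.46 ± 0.17 (edgeR adjusted p = 0.235) and 0.36 ± 0.19 (edgeR adjusted p = 0.410). The glutathione transferase Gstk1 had a log2 difference of 0.39 ± 0.16 (29.7 ± 7.45 and 38.9 ± 6.38 CPM, edgeR adjusted p = 0.285). The microsomal glutathione transferase Mgst1, which also occurs in peroxisomes, had one of -0.65 ± 0.31 (26.5 ± 13.0 and 16.9 ± 6.42 CPM, edgeR adjusted p = 0.372).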
